A study of Rattus norvegicus with 36 samples.

Results

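The neutrophil-attracting CXC chemokines and their receptor Cxcr2 were followed in rat lung after exposure to DQ-12, a crystalline quartz dust used as a reference for silica toxicity. The set held 7 genes, Cxcl1, Cxcl2, Cxcl3, Cxcl6, Ppbp, Pf4 and Cxcr2, and was taken as every non-control probe whose gene name on the array was one of these symbols. There were 10 such probes, and all 7 genes were among the 23940 genes tested out of 25597 gene names on the array. The study looked for early markers in the lung that foretell lasting harm from inhaled particles. Female Sprague Dawley rats, aged 13 weeks, received DQ-12 at 10 mg/rat or vehicle by endotracheal instillation, and the accessory lobe was taken 1, 30 or 180 days later (D1, D30 and D180). Each of the 6 groups held 6 rats, each rat was hybridised on its own one-colour array, and no animals were pooled. A whole lobe mixes epithelium, vessels and leukocytes, so fewer cells of a type and less RNA per cell cannot be told apart. Between 51.5 and 75.5% of the probes of an array were well above background, and the number of arrays limits the precision of every value.

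CXC chemokines are small secreted proteins with an amino acid between their first cysteines. Those that carry the sequence glutamate-leucine-arginine (ELR) just before the cysteines bind CXCR2, a G-protein-coupled receptor of neutrophils, and draw these cells out of the blood. Cxcl1 (also CINC-1), Cxcl2 (MIP-2), Cxcl3 (CINC-2) and Cxcl6, which RefSeq lists with Cxcl5 as a synonym, are made by epithelium, macrophages and other cells when NF-kB is active. Ppbp encodes a platelet protein that is trimmed to the ELR chemokine NAP-2, and Pf4 encodes platelet factor 4, a chemokine without ELR that is stored in platelet granules.

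The 6 ligand genes lay together on chromosome 14 and were read from its minus strand. On the rn4 build named in the array files, the Cxcl2 probe lay at chr14:18677165-18677224 and the Cxcl1 probe at chr14:18690468-18690527. The 2 Cxcl3 probes lay at chr14:18785776-18785835 and chr14:18786864-18786923, the Pf4 probe at chr14:18812555-18812614 and the Ppbp probe at chr14:18816439-18816498. The 2 Cxcl6 probes, at chr14:18825091-18825150 and chr14:18825696-18825755, closed the row, while the 2 Cxcr2 probes lay on the plus strand at chr9:73477254-73477313 and chr9:73478208-73478267. The RefSeq gene table gave the same order, with 5 other loci between Cxcl2 and Cxcl6. No annotation of the rn4 build was used here, so the probes were not placed in exons or UTRs. Laid side by side without gaps, the 60-base probes of different genes matched at 38 bases or fewer, the most alike being those of Pf4 and Cxcl6.

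Promoters were read from RefSeq on the GRCr8 build, as 250 bases before and 50 bases after each transcription start. An entry was found for 5 of the 7 genes, and Cxcl3 and Pf4 had none. The stretch of 120 bases just before the start is printed, to show what Cxcl1, Cxcl2 and Cxcl6 had in common. Cxcl3, also an ELR gene that changed, could not be examined. Capitals mark matches on either strand to the NF-kB consensus of 10 bases or to the TATA box TATAAA, and overlapping matches run together. The Cxcl1 stretch lay at chr14:17479322-17479441, that of Cxcl2 at chr14:17467256-17467375, that of Cxcl6 at chr14:17596418-17596537 and that of Ppbp at chr14:17587300-17587419, all on the minus strand. The Cxcr2 stretch lay on the plus strand at chr9:83178525-83178644.
Cxcl1: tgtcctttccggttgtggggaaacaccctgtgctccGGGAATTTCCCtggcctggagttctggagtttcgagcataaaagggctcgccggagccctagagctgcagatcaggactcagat
Cxcl2: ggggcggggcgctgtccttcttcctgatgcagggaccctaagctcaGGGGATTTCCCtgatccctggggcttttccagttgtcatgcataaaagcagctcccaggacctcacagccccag
Cxcl6: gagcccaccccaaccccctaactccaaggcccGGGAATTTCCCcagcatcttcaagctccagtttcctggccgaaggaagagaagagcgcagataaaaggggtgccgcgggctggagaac
Ppbp: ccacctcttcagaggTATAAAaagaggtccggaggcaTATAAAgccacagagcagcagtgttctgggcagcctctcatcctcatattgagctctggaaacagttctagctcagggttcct
Cxcr2: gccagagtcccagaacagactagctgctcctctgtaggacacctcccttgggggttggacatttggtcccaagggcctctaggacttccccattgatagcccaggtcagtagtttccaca
Cxcl1, Cxcl2 and Cxcl6 each held an NF-kB match, beginning 84, 74 and 88 bases before the start. Of all 33469 rat promoters of this length, 7.51% held one. The exact letters TATAAA were matched in Ppbp alone of the 5, beginning 105 and 83 bases before the start, and in 14.2% of all promoters. Variants of these letters were not searched, so a TATA-like stretch in the other 4 is not excluded. The AP-1 consensus TGANTCA was in none of the 5 and in 7.33% of all. A match describes the letters and is not evidence that a factor was bound.

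Signals are given as quantile normalized log2 intensity, on which a difference of 1 is a 2-fold change. Each probe has its own brightness, so levels of different genes were not set against each other. A gene was called changed (a differentially expressed gene, DEG) when limma, fitted over all genes, put the 2 groups at least 2-fold apart (the fold change, FC) with a Benjamini-Hochberg adjusted p under 0.05. At D1, 1 of the 7 genes was called, against 3.07% of all genes. At D30, 4 of 7 were called, against 1.05% of all genes, and at D180, 4 of 7, against 3.63%. All of these calls were towards a higher signal with DQ-12. Over the 7 genes the log2 FC had its median at 0.19 on D1, 1.17 on D30 and 1.23 on D180, and over all genes tested at -0.0095, -0.015 and -0.032. The genes moved unevenly: Cxcl2 was called at all 3 time points, Cxcl3 and Cxcl6 at D30 and D180, Cxcl1 at D30, Cxcr2 at D180, and neither platelet chemokine at any. At D1, all 6 DQ-12 arrays were scanned on a date that held 1 vehicle array, the other 5 vehicle arrays having been scanned on 2 other dates, so within-date values are given for each gene. With slide as a fixed block none of the 7 genes was called by limma at any time point, a fit that rests on the 1 of 5, 3 of 4 and 1 of 10 slides that held both groups at D1, D30 and D180. The fitted differences of the otherwise called genes in that fit were 1.01 for Cxcl2 at D1, from 1.05 for Cxcl3 to 2.76 for Cxcl6 at D30, and from 1.2 for Cxcr2 to 5.48 for Cxcl6 at D180, with SE of 0.82, of 0.33 to 0.76 and of 0.68 to 1.55. With scan date as a fixed block 0, 2 and 4 genes were called, the calls of Cxcl2 at D1 and of Cxcl1 and Cxcl3 at D30 being lost.

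**Figure D1:**
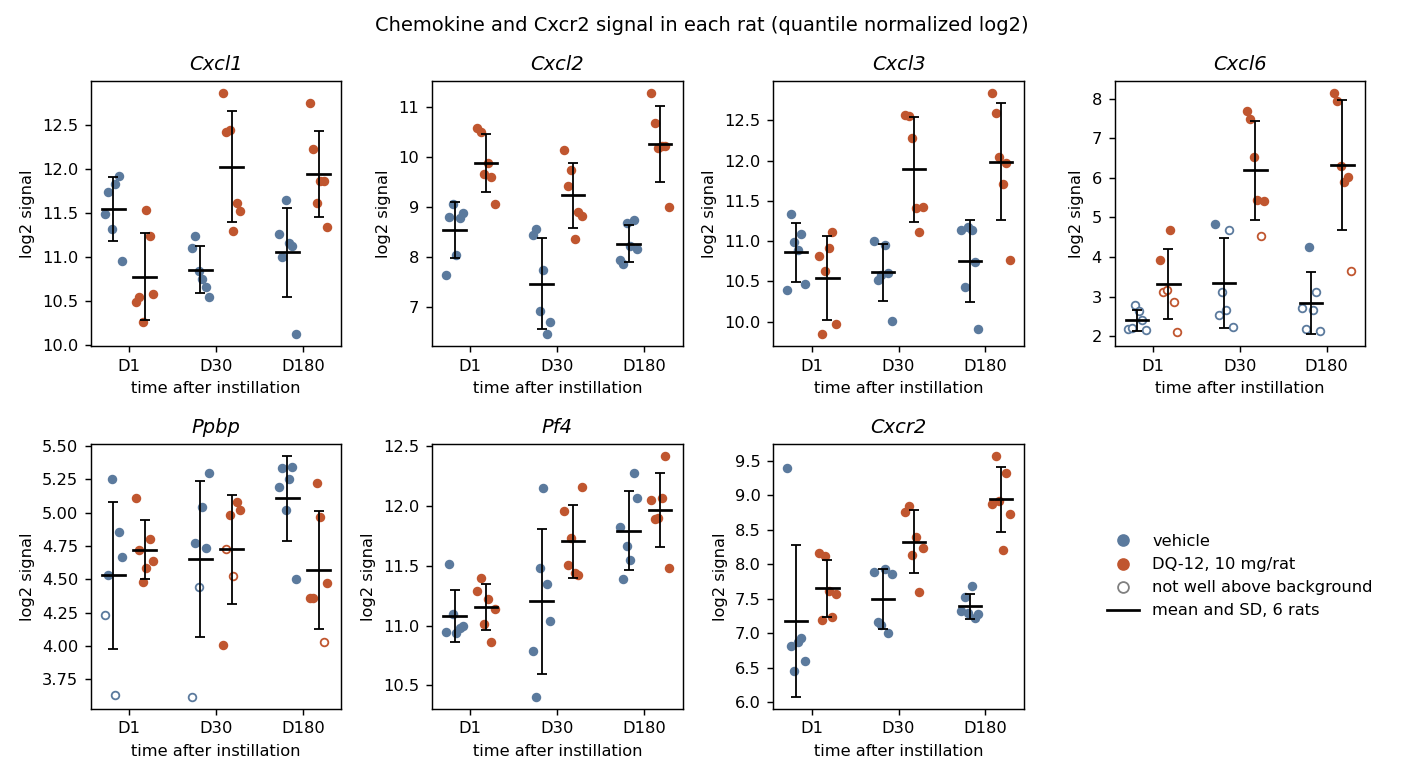
Quantile normalized log2 signal (vertical axis) of each gene in each rat at D1, D30 and D180 (horizontal axis), vehicle in blue and DQ-12 in orange, with the mean and SD of 6 rats in black and open circles for signals not well above background. Cxcl2 was higher with DQ-12 at every time point, Cxcl1 and Cxcl3 at D30 and D180 but not at D1, and 1 vehicle rat at D1 stood at 9.39 for Cxcr2, above every other rat of that time point.

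Cxcl2, which encodes MIP-2, was the ligand that rose at every time point. At D1 its signal ran from 7.65 through a median of 8.79 to 9.07 in vehicle rats, and from 9.07 through 9.78 to 10.57 in DQ-12 rats. The highest vehicle rat and the lowest DQ-12 rat were level to within rounding, and every DQ-12 rat lay above every vehicle rat, which held for 5.23% of all genes at D1. The difference was 1.34 on the log2 scale (SE 0.37, n = 6 per group), a 2.53-fold rise with an adjusted p of 0.0109 by limma. At D30 vehicle rats ran from 6.47 through 7.34 to 8.56 and DQ-12 rats from 8.36 through 9.16 to 10.14, so that 5 of 6 DQ-12 rats lay above every vehicle rat. This was a rise of 1.76 (SE 0.37), or 3.38-fold, with an adjusted p of 0.00332 by limma. At D180 every DQ-12 rat lay above every vehicle rat, which held for 3.82% of all genes, with vehicle rats at 7.86, 8.19 and 8.74 (lowest, median, highest) and DQ-12 rats at 8.99, 10.21 and 11.27. The rise there was 1.99 (SE 0.37), or 3.98-fold, with an adjusted p of 1.56e-04 by limma. Within scan dates the difference was 0.81 at D1 (6 DQ-12 rats against 1 vehicle rat), 1.36 and 1.96 at D30, and 2.43 and 2.36 at D180. The D1 call was lost in each of the 4 fits with slide or scan date as a block (adjusted p from 0.0914 to 0.738).

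Cxcl1, which encodes CINC-1, differed in opposite directions at D1 and at the later times. At D1 it ran from 10.96 through 11.61 to 11.92 in vehicle rats and from 10.27 through 10.57 to 11.53 in DQ-12 rats, and 4 of 6 DQ-12 rats lay below every vehicle rat. The difference was -0.76 (SE 0.27), 1.70-fold lower with DQ-12, with an adjusted p of 0.0463 by limma, and it missed the 2-fold limit. When limma was run on all 42200 probes the adjusted p was 0.0551. At D30 vehicle rats ran from 10.55 through 10.79 to 11.24 and DQ-12 rats from 11.30 through 12.02 to 12.86. Every DQ-12 rat lay above every vehicle rat, as for 1.81% of all genes at D30, and the rise was 1.17 (SE 0.27), or 2.25-fold, with an adjusted p of 0.00757 by limma. With scan date as a fixed block it was 1.1 and lost its call (adjusted p = 0.0611). At D180 vehicle rats ran from 10.13 through 11.14 to 11.65 and DQ-12 rats from 11.34 through 11.87 to 12.75, with 4 of 6 DQ-12 rats above every vehicle rat. The difference of 0.89 (SE 0.27, 1.85-fold, adjusted p = 0.0172 by limma) fell short of 2-fold. It became a call when vehicle rat 3 or DQ-12 rat 6 of D180 was left out, at 1.01 in both cases, and was 0.71 and 0.73 without vehicle rat 6 or DQ-12 rat 1 of D180 (adjusted p of 0.0652 and 0.0619). The adjusted p was also above 0.05 with array weights (0.0668), with scan date or slide as a fixed block (0.0780 and 0.316) and with only the groups of that comparison (0.0565). Within scan dates Cxcl1 differed by -0.54 at D1, by 0.73 and 1.31 at D30 and by 0.84 and 0.87 at D180. On the D1 date that held both groups, the 1 vehicle rat lay within the DQ-12 range.

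Cxcl3, which encodes CINC-2, rose at D30 and D180. Its brighter probe ran from 10.39 through 10.93 to 11.34 in vehicle rats at D1 and from 9.85 through 10.72 to 11.11 in DQ-12 rats, and these ranges overlapped (difference -0.31, SE 0.30, adjusted p = 0.542 by limma). At D30 vehicle rats ran from 10.01 through 10.59 to 11 and DQ-12 rats from 11.11 through 11.85 to 12.57, with no overlap. The rise was 1.28 (SE 0.30), or 2.43-fold, with an adjusted p of 0.0103 by limma. With scan date as a fixed block it was 1.03 and lost its call (adjusted p = 0.0688). At D180 the 2 groups ran from 9.91 through 10.94 to 11.18 and from 10.77 through 12.01 to 12.84, and 1 DQ-12 rat fell within the vehicle range. The rise was 1.23 (SE 0.30), or 2.35-fold, with an adjusted p of 0.00363 by limma. Within scan dates the brighter probe differed by -0.44 at D1, by 0.58 and 1.28 at D30 and by 1.34 and 1.54 at D180. The dimmer Cxcl3 probe differed by 0.32, 1.39 and 1.22 at D1, D30 and D180, so that the probes disagreed in sign at D1 and were close at the later times. Their deviations from the group means had a Pearson r of 0.85 over the 36 arrays.

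Cxcl6 gave the largest fitted differences of the 7 genes at D30 and D180, and lay near background in vehicle rats, so that their size is imprecise. At D1 vehicle rats ran from 2.16 through 2.31 to 2.80 and DQ-12 rats from 2.10 through 3.15 to 4.68. None of the 6 vehicle arrays and 2 of the 6 DQ-12 arrays were well above background, so no size of the D1 ratio is given. Of the DQ-12 rats, 5 lay above and 1 below every vehicle rat. The 95% interval of the log2 difference ran from -0.32 to 2.15, and the gene was not called at D1 (adjusted p = 0.338 by limma). At D30 vehicle rats ran from 2.24 through 2.89 to 4.83 and DQ-12 rats from 4.54 through 5.98 to 7.69, well above background on 1 and 5 arrays. The lowest DQ-12 rat lay inside the vehicle range, and the rise was 2.84 (SE 0.60), or 7.18-fold, with an adjusted p of 0.00384 by limma. At D180 vehicle rats ran from 2.13 through 2.69 to 4.26 and DQ-12 rats from 3.65 through 6.17 to 8.14, again well above background on 1 and 5 arrays. The lowest DQ-12 rat lay below the highest vehicle rat, and the rise was 3.48 (SE 0.60), or 11.2-fold, with an adjusted p of 6.71e-05 by limma. The other Cxcl6 probe was at least 15.5-fold higher at D30, where none of the vehicle arrays and all 6 DQ-12 arrays were well above background, and it rose by 3.79 at D180. Within scan dates the first probe differed by 0.52 at D1, by 0.97 and 3.62 at D30 and by 4.25 and 3.85 at D180.

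Cxcr2, the receptor, was called at D180, and its probes disagreed at D1. At D180 the brighter probe ran from 7.22 through 7.31 to 7.68 in vehicle rats and from 8.20 through 8.90 to 9.57 in DQ-12 rats. The groups stood apart, and the rise was 1.55 (SE 0.33), or 2.93-fold, with an adjusted p of 7.88e-04 by limma. At D30 vehicle rats ran from 7.0 through 7.51 to 7.93 and DQ-12 rats from 7.59 through 8.31 to 8.84, and 5 of 6 DQ-12 rats lay above every vehicle rat. The difference of 0.83 (SE 0.33) had an adjusted p of 0.173 by limma and was not called. At D1 vehicle rats ran from 6.45 through 6.84 to 9.39 and DQ-12 rats from 7.19 through 7.59 to 8.16, the value of 9.39 belonging to vehicle rat 1. The difference was 0.47 (SE 0.33, adjusted p = 0.367 by limma), and 0.91 (SE 0.23, adjusted p = 0.00704) when that rat was left out, still under 2-fold. Within scan dates the brighter probe differed by 1.19 at D1, by 0.12 and 0.94 at D30 and by 1.69 and 1.80 at D180.

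On the dimmer Cxcr2 probe, vehicle rat 1 was the lowest vehicle rat of D1, at 5.94. That probe ran from 5.94 through 6.21 to 6.90 in vehicle rats and from 7.11 through 7.57 to 7.80 in DQ-12 rats at D1, without overlap. Its D1 difference of 1.26 (SE 0.25), or 2.39-fold, passed both limits when limma was run on all 42200 probes (adjusted p = 5.67e-04, with 2.78% of probes called). It was also 1.26 on the scan date that held all 6 DQ-12 rats and 1 vehicle rat. At D30 it differed by 0.66 (adjusted p = 0.178 by limma, 0.794% of probes called) and at D180 by 1.52 (adjusted p = 3.53e-05 by limma, 3.19% of probes called). The 2 Cxcr2 probes followed each other weakly between rats of a group, with an r of 0.24 over the 36 arrays, against 0.83 for the 2 Cxcl6 probes.

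Neither platelet chemokine was called or had an adjusted p under 0.05 by limma. Pf4 was well above background on every array and ran from 10.94 through 10.99 to 11.51 in vehicle rats and from 10.86 through 11.18 to 11.40 in DQ-12 rats at D1. At D30 it ran from 10.41 through 11.20 to 12.15 and from 11.42 through 11.62 to 12.16, and at D180 from 11.39 through 11.75 to 12.27 and from 11.48 through 11.97 to 12.42. The groups overlapped at all 3 time points, and the differences were 0.08, 0.50 and 0.17 (SE 0.20, 95% intervals -0.33 to 0.48, 0.09 to 0.91 and -0.24 to 0.58). The unadjusted p at D30 was 0.0183 and the adjusted p 0.183 by limma. Within scan dates Pf4 differed by 0.06 at D1, by 0.53 and -0.06 at D30 and by 0.27 and 1.03 at D180. Ppbp was dim, well above background on 29 of 36 arrays, and ran from 3.64 through 4.60 to 5.25 and from 4.48 through 4.68 to 5.11 at D1. At D30 it ran from 3.62 through 4.75 to 5.30 in vehicle rats and from 4.01 through 4.85 to 5.08 in DQ-12 rats, and at D180 from 4.50 through 5.22 to 5.34 and from 4.03 through 4.42 to 5.22. All 3 pairs of ranges overlapped, and at D180, 4 of 6 DQ-12 rats lay below every vehicle rat. The Ppbp differences were 0.19, 0.07 and -0.54 (SE 0.25, 95% intervals -0.31 to 0.70, -0.43 to 0.58 and -1.04 to -0.03), with adjusted p of 0.666, 0.962 and 0.148 by limma, and an unadjusted p of 0.0380 at D180. Within scan dates it differed by -0.53 at D1, by 0.48 and -0.09 at D30 and by -0.51 and -1.30 at D180. The sign at D1 turned under other scaling or with slide or scan date in the fit, as did that at D30 under other background correction.

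**Figure D2:**
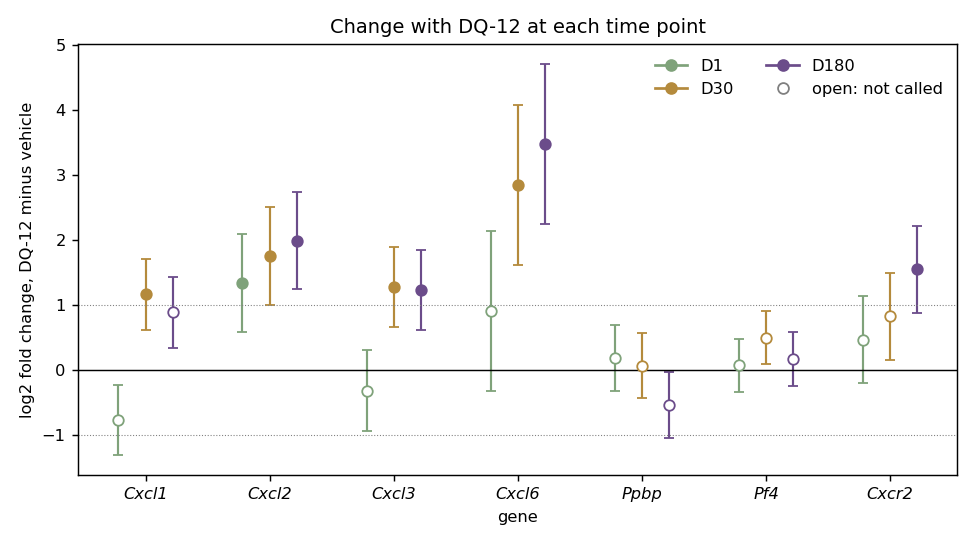
Log2 fold change of DQ-12 over vehicle (vertical axis) for each gene (horizontal axis) at D1, D30 and D180, with 95% confidence intervals from limma, filled circles for called genes and dotted lines at a 2-fold change. Cxcl1 and Cxcl3 lay below 0 at D1 and above 0 at D30 and D180, and Cxcl6 reached 3.48 at D180. The Cxcl6 point at D1 stands against vehicle arrays that were not well above background.

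The exact permutation test over the 12 rats of a time point, 2-sided, can give no p below 0.00216. It gave that value for Cxcl2 at D1, for Cxcl1 and Cxcl3 at D30, and for Cxcl2 and Cxcr2 at D180. These were the comparisons in which the groups did not overlap, every DQ-12 rat lying above every vehicle rat. The same held for 5.23%, 1.81% and 3.82% of all genes at D1, D30 and D180. The test swaps rats between scan dates, which held the 2 groups unevenly, so differences between dates are not kept apart. For Cxcl6 the exact p was 0.0303 at D1, 0.00649 at D30 and 0.00433 at D180. For Cxcl1 it was 0.0173 at D1 and 0.00649 at D180, for Cxcl2 at D30 0.00649, for Cxcl3 at D180 0.00866, for Cxcr2 at D30 0.0152 and for Ppbp at D180 0.0281. The other 7 comparisons gave an exact p from 0.102 to 0.790.

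Whether the response changed with time was tested as a difference of log2 FC in the same limma fit. From D1 to D30, 2 of the 7 genes were called, against 0.944% of all genes. The log2 FC of Cxcl1 was 1.93 higher at D30 than at D1 (SE 0.38, adjusted p = 0.00388 by limma), and that of Cxcl3 was 1.60 higher (SE 0.43, adjusted p = 0.0398 by limma). From D1 to D180 the same genes were called, Cxcl1 at 1.65 (SE 0.38, adjusted p = 0.00826) and Cxcl3 at 1.55 (SE 0.43, adjusted p = 0.0313), against 1.55% of all genes. Both Cxcl3 calls rested on the brighter probe, and for the mean of its probes the differences were 1.33 and 1.22, with adjusted p of 0.116 and 0.118. They also rested on single rats, being lost on leaving out any 1 of 12 and of 8 rats, with adjusted p up to 0.0855 and 0.0620, while Cxcl1 kept both calls. Cxcl2 had a log2 FC that was 0.42 higher at D30 than at D1 (95% interval -0.65 to 1.48) and was not called. For Cxcl6 no size of the change from D1 is given, since its vehicle arrays at D1 were not well above background, and it was not called (adjusted p = 0.0788 by limma from D1 to D180). From D30 to D180 none of the 7 genes was called by limma or had an unadjusted p under 0.05, and 0.138% of all genes were, the differences lying between -0.61 for Ppbp and 0.72 for Cxcr2. With scan date as a fixed block the differences from D1 were 1.65 and 1.39 for Cxcl1 and 1.46 and 1.83 for Cxcl3, at D30 and D180, and none was called by limma (adjusted p from 0.145 to 0.555).

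Ordered by their means over the 6 groups, the ranges of neighbouring groups overlapped for every one of the 7 genes. For Cxcl1 the lowest mean was that of DQ-12 rats at D1 (10.78) and the highest that of DQ-12 rats at D30 (12.02). For Cxcl2 vehicle rats at D30 were lowest (7.47), followed by vehicle rats at D180 (8.27) and D1 (8.54), and then DQ-12 rats at D30 (9.23), D1 (9.88) and D180 (10.26). Cxcl3 had its lowest mean in DQ-12 rats at D1 (10.55), and its 3 vehicle means lay between 10.61 and 10.86. Cxcl6 and Cxcr2 were lowest in vehicle rats at D1 (2.40 and 7.18) and highest in DQ-12 rats at D180 (6.32 and 8.94). The mean of Pf4 was higher at D180 than at D1 in vehicle rats too (11.79 and 11.08), which were scanned on different dates.

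Between rats of a group the 4 inducible ligands went together. After the group means were subtracted, the Pearson r over the 36 arrays was 0.78 for Cxcl1 with Cxcl3 and for Cxcl3 with Cxcl6, 0.65 for Cxcl1 with Cxcl6, and between 0.50 and 0.58 for Cxcl2 with each of the others. Among Ppbp, Pf4 and Cxcr2, and between them and the 4 ligands, r lay between -0.29 and 0.18. Cxcr2 was taken here from its brighter probe, on which vehicle rat 1 of D1 stood apart from its group. At D180, DQ-12 rat 1 had the highest signal of all 4 ligands and DQ-12 rat 6 the lowest of all 4. At D30, DQ-12 rat 1 was again highest for all 4, while the lowest was rat 4 for Cxcl1 and Cxcl2 and rat 5 for Cxcl3 and Cxcl6. At D1 the highest DQ-12 rat was rat 1 for Cxcl2, rat 4 for Cxcl1 and Cxcl6, and rat 5 for Cxcl3. The points share arrays, slides and scan dates, so these correlations are a description.

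**Figure D3:**
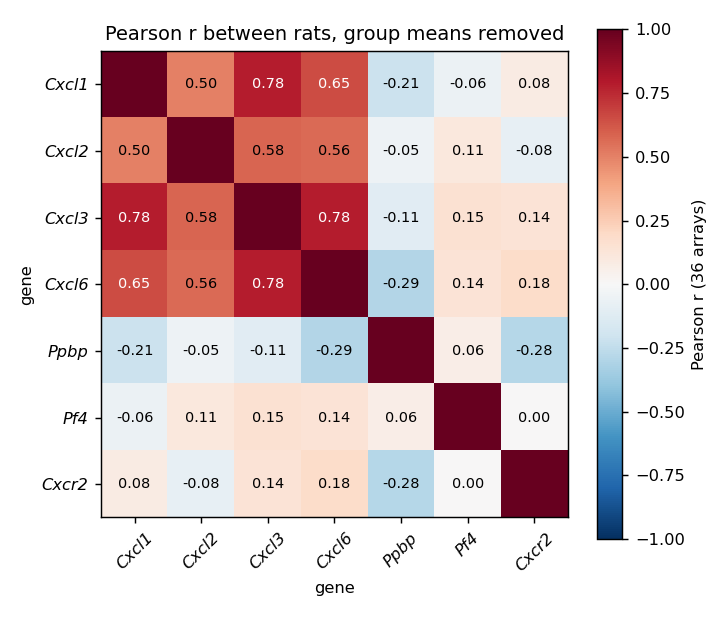
Pearson r between each pair of genes over the 36 arrays after the mean of each group was subtracted (both axes list the genes, and colour runs from -1 in blue to 1 in red). The block of Cxcl1, Cxcl2, Cxcl3 and Cxcl6 holds r from 0.50 to 0.78, and every other pair lies between -0.29 and 0.18.

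Outside the set, the genes most like Cxcl1 in this measure were Cx3cl1 (r = 0.72), Lgr4 (0.68) and Rhou (0.64), of which Cx3cl1 encodes fractalkine, a membrane-bound chemokine. Those most like Cxcl6 were Cx3cl1 (0.68), Ccl20 (0.65), which encodes a chemokine of CCR6-bearing cells, and Slc6a14 (0.65), an amino acid transporter. Cxcl2 was followed by Osm (0.61), which encodes the cytokine oncostatin M, Noxo1 (0.60), an NADPH oxidase organiser, and LOC103690506 (0.60). Cxcl3 was followed by Gfod2 (0.76), Hs3st6 (0.76) and Npas2 (0.73), Ppbp by Tubg2 (0.67) and Adipor2 (0.65), and Pf4 by Uxt (0.81), Neurl2 (0.78) and Polr2j (0.77). For Cxcr2 they were Olr657 (0.77), LOC680190 (0.76) and Tex13a (0.75). These values rest on the brighter Cxcr2 probe, on which vehicle rat 1 of D1 stood at 9.39, and the dimmer probe was not used for them.

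Among the other CXC chemokines, those for the receptor CXCR3 rose by D180. Of 8 genes tested, 1, 1 and 3 were called higher at D1, D30 and D180, and none was called lower. Their median log2 FC was 0.04, 0.24 and 0.58. Without regard to fold, 1 of the 8 was lower and 2 higher at D1 at an adjusted p under 0.05 by limma. At D180, 1 was lower and 4 higher by the same measure. Cxcl10 rose by 1.61, 1.78 and 2.98 at the 3 time points, and at D180 Cxcl11 rose by 2.99 and Cxcl9 by 1.14. Of 9 other CXC and atypical receptors 1 was called, and 6, 1 and 6 had an unadjusted p under 0.05 by limma at D1, D30 and D180, as did 29%, 15.8% and 27.9% of all genes. Ackr4, a scavenger of CC chemokines, fell by 1.03 at D180. Cxcr1, the neighbour of Cxcr2 that also binds ELR chemokines, differed by -0.61, 0.12 and 0.23 and was not called.

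Of 15 cytokines and receptors that act upstream of ELR chemokines, none was called by limma at D1 (1 at an unadjusted p under 0.05), 1 rose at D30 and 3 rose at D180, with medians of 0.17, 0.20 and 0.31. Tnf, which encodes tumour necrosis factor, rose by 1.34 at D30 and 1.31 at D180. At D180 Il1b, which encodes interleukin-1 beta, rose by 1.17, and Il17a was at least 3.01-fold higher, with none of the vehicle arrays and 3 of the DQ-12 arrays well above background. Of 11 NF-kB subunits and inhibitors 1 was called, Bcl3, an atypical inhibitor family member that binds NF-kB subunits, which rose by 1.09 at D180. The list's median was 0.22, 0.06 and 0.51. Without regard to fold, 7 of the 11 were higher and none lower at D180 at an adjusted p under 0.05 by limma. Of all genes, 16.8% passed that limit in either direction. An unadjusted p under 0.05 by limma was found for 4, 5 and 8 of the 11 at D1, D30 and D180. Of all genes, 29%, 15.8% and 27.9% had one. None of the 13 genes of CXCR2 signalling was called by limma at any time point, and 1, 3 and 5 of them had an unadjusted p under 0.05.

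Of 12 attractant and receptor genes none was called by limma at D1 (5 at an unadjusted p under 0.05), 2 rose at D30 and 3 at D180, with medians of 0.39, 0.38 and 0.30. S100a9 and S100a8, which encode the subunits of calprotectin and were also in the neutrophil marker list, rose by 1.93 and 1.1 at D30 and by 2.57 and 1.56 at D180. Ptafr, the receptor for platelet-activating factor, rose by 1.41 at D180. Of 12 adhesion genes 2 were called, both at D180, Itgam (an integrin chain of neutrophils and macrophages) by 2.19 and Sele (E-selectin of activated endothelium) by 2.06, while the median of the list was 0.05, 0.16 and 0.47. Of 7 genes for binding and cleavage of chemokines, Mmp12, a macrophage elastase, rose by 3.36, 3.61 and 4.91, and Mmp9, a gelatinase, by 2.00 at D180. The list's median was 0.19, 0.11 and 0.12.

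**Figure D4:**
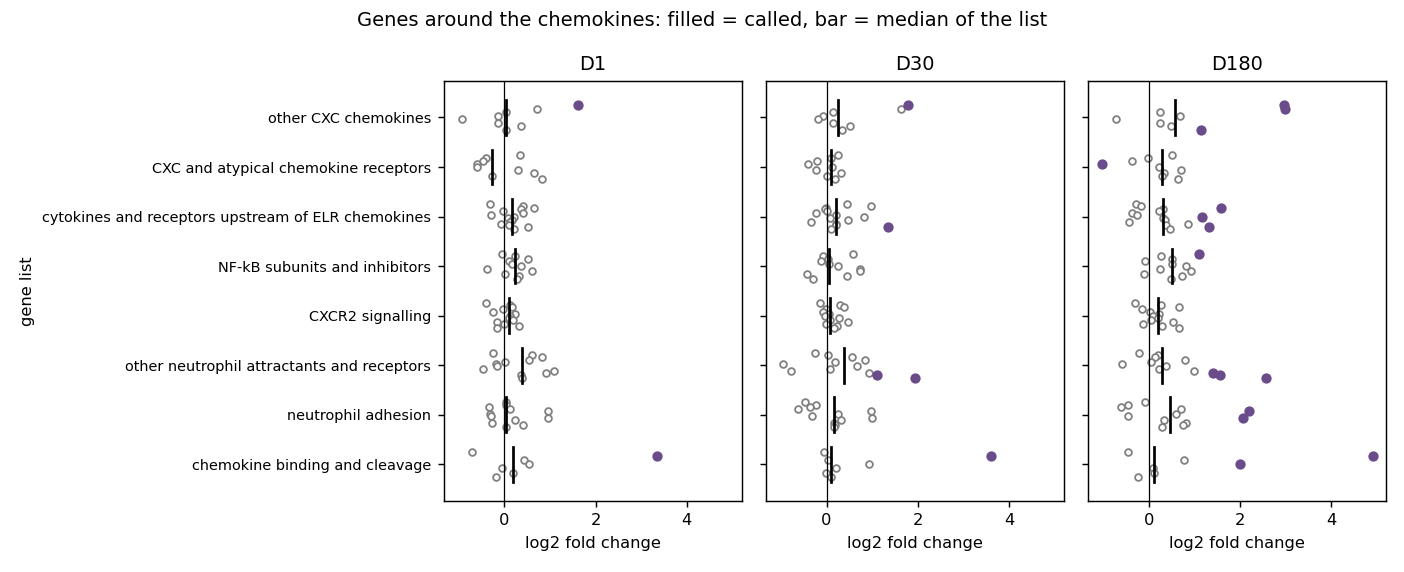
Log2 fold change of DQ-12 over vehicle (horizontal axis) for every tested gene of 8 lists of genes around the chemokines (vertical axis) at D1, D30 and D180, with filled circles for called genes and a bar at the median of a list. Called genes are few at D1 and most at D180, and every list median lies between -0.26 and 0.58.

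Some neutrophil markers were called at D1, D30 and D180, and some macrophage markers at D30 and D180. At D1 some macrophage markers were higher at an adjusted p under 0.05 by limma but missed the 2-fold limit. All 10 epithelial and endothelial markers of the lobe were detected, and none was called by limma. Their median log2 FC was -0.23, -0.09 and -0.26 at D1, D30 and D180, and 7, 4 and 6 of them had an unadjusted p under 0.05. At D180, 5 of the 10 were lower and 1 higher at an adjusted p under 0.05 without regard to fold, as were 16.8% of all genes in either direction. The part of these markers in the chemokine values was not tested. Of 15 neutrophil markers 3 were called higher at D1, 4 at D30 and 6 at D180, and none was called lower. Without regard to fold, 1 of the 15 was lower at an adjusted p under 0.05 by limma at each time point. Medians over these 15 markers stood at 0.38, 0.20 and 0.78 on the log2 scale at D1, D30 and D180. Their summed linear signal, in units of 1000, was 11.4 to 22.2 in vehicle rats and 15.6 to 33.4 in DQ-12 rats at D1, 9.36 to 18.9 and 28.2 to 69.3 at D30, and 10.6 to 18.6 and 54.8 to 75.8 at D180. The groups overlapped at D1 and stood apart at D30 and D180. A sum of linear signal weighs each marker by its brightness, so the gap between the groups is not a rise of every marker. At D1 the calls were Il1r2 (2.98 on the log2 scale), Csf3r (1.41) and Cd177 (1.23), at D30 Cd177 (3.19) and Il1r2 (2.15) led, and at D180 Cd177 (2.83), S100a9 (2.57) and Il1r2 (2.32). For markers and for genes of the other lists no values within scan dates are given. Over all genes, 736 were called at D1 in the main fit and 176 with scan date as a fixed block. Of the granule markers, Elane and Ltf were well above background on no array. Within groups the neutrophil sum had an r of 0.08 to 0.15 with Cxcl1, Cxcl2, Cxcl3 and Cxcl6. With the brighter Cxcr2 probe its r was 0.26, and the part of this sum in these results was not tested.

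**Figure D5:**
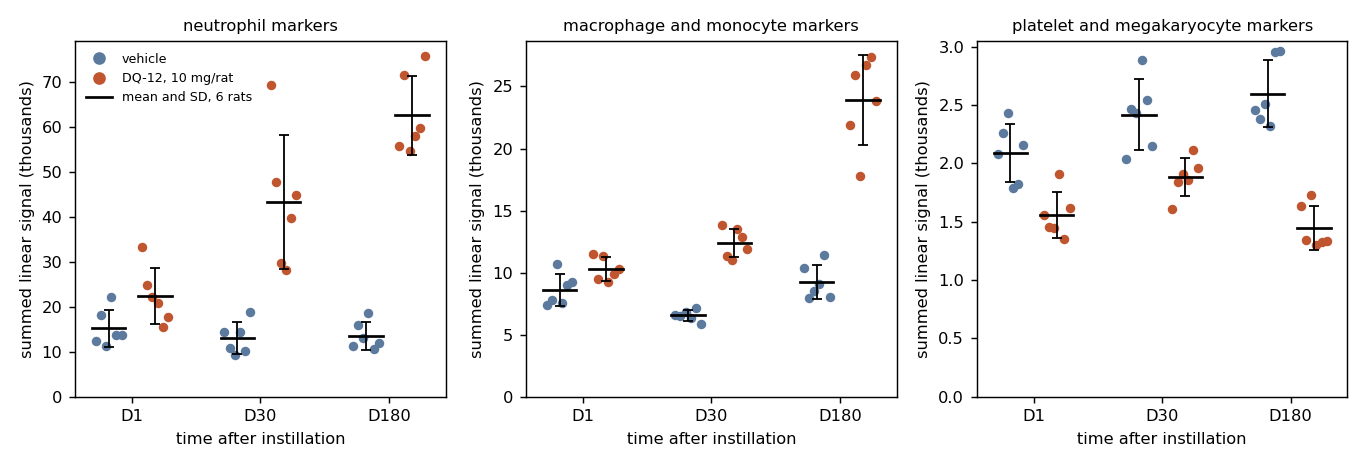
Summed linear signal in units of 1000 (vertical axis) of the neutrophil, macrophage and monocyte, and platelet and megakaryocyte marker lists in each rat at D1, D30 and D180 (horizontal axis), vehicle in blue and DQ-12 in orange, with the mean and SD of 6 rats. The neutrophil and macrophage sums lay above all vehicle rats at D30 and D180, and the platelet sum of DQ-12 rats at D180, at most 1.73, lay below every vehicle rat.

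No macrophage or monocyte marker was called by limma at D1 (5 at an unadjusted p under 0.05), and 3 of 8 rose at D30 and 4 of 8 at D180. Without regard to fold, 3 of the 8 were higher and none lower at D1 at an adjusted p under 0.05 by limma. At D1 every DQ-12 rat lay above every vehicle rat for 3 of the 8, and for 5.23% of all genes. Marco, a scavenger receptor of alveolar macrophages, was at least 5.68-fold higher at D30 and rose by 2.62 at D180. Siglec1, a macrophage lectin, rose by 2.04 and 1.96 at D30 and D180, and Cd68, a lysosomal marker, by 1.16 and 1.55. Their summed signal, in the same unit, ran from 7.41 to 10.7 in vehicle rats and from 9.24 to 11.5 in DQ-12 rats at D1, and from 8.0 to 11.4 and 17.8 to 27.4 at D180. Of the 6 mast cell markers, Tpsab1 and Cma1 rose at D180, by 1.57 and 1.28. Without regard to fold, 4 of the 6 were higher and 1 lower at an adjusted p under 0.05 by limma at D180. The summed mast cell signal at D180 had a median of 8.93 in vehicle rats and 7.79 in DQ-12 rats, and the ranges overlapped. Of 8 lymphocyte markers none was called by limma at any time point, with 1, 2 and 1 at an unadjusted p under 0.05. The summed signal of the platelet and megakaryocyte markers ran from 1.78 to 2.43 in vehicle rats and from 1.35 to 1.91 in DQ-12 rats at D1, and from 2.32 to 2.96 and 1.30 to 1.73 at D180. The platelet sum followed Pf4 and Ppbp between rats of a group with an r of 0.39 and 0.37, and its part in their values was not tested.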

How the data were processed

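RNA of the accessory lobe of 36 rats was hybridised by the authors on one-colour Agilent 8x60K arrays (Cy3), 1 array per rat. Per the labels, the images were read with Agilent Feature Extraction 12.0.1.1, and the deposited array files hold background-corrected linear intensity per spot, flags of 0 or 1 and the rn4 build. A value table deposited by the authors holds log2 values. They matched the log2 intensity less the 75th percentile of each array, compared as deviations from each probe's median, with a median absolute difference of 0.00177, so the centring was found from the data. Direction is higher for brighter. The medians of its columns lay between -0.15 and 0.23.

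Outlier spots were left out (232 to 596 of 58717 per array), spots were averaged per probe, and 42200 of 45598 probes were kept, those that exceeded, on 6 or more arrays, the 95th percentile of that array's negative controls. Log2 values were quantile normalized, and the brightest probe stood for its gene. limma 3.58.1 (R 4.3.3) fitted 6 group means over all 36 arrays, with Benjamini-Hochberg adjustment over 23940 genes. Bounds for probes not well above background set the brighter group's mean against the dimmer group's mean of, per array, the higher of its own signal and the lowest signal well above background. A batch correction is part of the study's methods, with the variable not given in the sources used here, so slide and scan date entered as alternatives (19 slides, 11 scan dates). Other alternatives were scaling, background correction, probe filter, probe averaging, array weights, moderation, thresholds, the samples in the fit, the replicate number as a block, and leaving out each rat. The statistics were tested on simulated data.

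Genes were named by rule: every gene of the set with each of its probes, up to 3 called genes of the largest absolute log2 fold change per list and time point, and the 3 genes most like each gene of the set by group-centred r. Cxcr1 and undetected markers were named outside this rule, and some genes that it names are not reported here. The genes of the set and the gene lists were chosen with earlier results of these data known. Promoters came from RefSeq tables (GRCr8). Nothing in the labels says how rats were spread over litters. The p-values of the main fit measure the spread between these rats together with that between their slides and scan dates.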

Additional observations from a re-analysis of the deposited data

Results flagged for a closer look

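In the 42 groups of 6 rats examined over the 7 genes, 2 held a rat whose gap to its nearest neighbour was a large part of the group's range, and chance alone marks about 1 in 20 groups. For Cxcr2 in vehicle rats at D1, rat 1 stood at 9.39, with the next rat at 6.93. For Pf4 in vehicle rats at D1, rat 2 stood at 11.51, with the next rat at 11.10. In 4 cases the response of a gene differed between time points. The log2 fold change of Cxcl1 was higher by 1.93 at D30 than at D1 and by 1.65 at D180 than at D1. That of Cxcl3 was higher by 1.60 and by 1.55 in the same comparisons.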

How the results depend on the processing

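The number of the 7 genes called at D30 and D180 held within 1.5 times the reported 4 under every alternative but those with a batch as a fixed block. With slide as a fixed block 0 were called at D1, D30 and D180, with fitted differences of 1.81 and 3.06 for Cxcl2 and 2.76 and 5.48 for Cxcl6 at D30 and D180 and larger SE (0.51 and 1.03, 0.76 and 1.55), and with scan date as a fixed block 0, 2 and 4. At D1 the count was 0 also with slide or scan date as a random block, and 2 with a fold change of at least 1.5 or with no fold threshold. Of the changes of response, both those from D1 to D30 and those from D1 to D180 fell from 2 to 0 with slide or scan date as a fixed block and to 1 for the mean of all probes of a gene, and those from D1 to D30 to 1 with slide or scan date as a random block. The cause was not tested. On leaving out each rat in turn, the counts ran from 1 to 1 at D1, 4 to 4 at D30 and 4 to 5 at D180, from 1 to 2 for D1 to D30, from 0 to 0 for D30 to D180 and from 1 to 3 for D1 to D180. Cxcl3 lost its call from D1 to D30 without vehicle rat 2, 3, 4 or 5 or DQ-12 rat 2 or 6 of D1, vehicle rat 2, 5 or 6 or DQ-12 rat 1, 2 or 3 of D30, and from D1 to D180 without vehicle rat 2 or 5 or DQ-12 rat 2 or 6 of D1, vehicle rat 2 or 6 or DQ-12 rat 1 or 2 of D180. From D1 to D180 Cxcl6 gained a call without DQ-12 rat 6 of D180, and Cxcl1 gained one at D180 without that rat or vehicle rat 3 of D180. The replicate number as a block (replicate block) gave counts of 1, 4 and 4 at D1, D30 and D180 and of 2, 0 and 3 for the changes of response. The deviations of same-numbered rats had an r over 0.1 in 6 of 18 pairs (r from -0.13 to 0.22). The numbers were not used as pairs in the main fit, and a low r cannot exclude that rats were paired. The Ppbp difference at D1 turned to -0.11 with 75th percentile scaling and with the deposited log2 values, to -0.47 and -0.53 with slide and scan date as fixed blocks and to -0.040 and -0.0082 with them as random blocks. At D30 it turned to -0.040 with normexp, -0.048 with array weights and -0.13 without vehicle rat 1. Cxcl3 at D1 turned to 0.0012 for the mean of its probes. Cxcl6 lay near background in vehicle rats, which limits the precision of its fold changes, and Cxcl2 at D30 had an adjusted p of 0.0573 by limma with only the groups of that comparison.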
